A study of Mus musculus with 9 samples.

Results

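Bile acid synthesis and its feedback control were followed through 10 genes in mouse liver: Cyp7a1, Cyp8b1, Cyp27a1 and Cyp7b1 (synthesis), Slc27a5 and Baat (conjugation), Nr1h4 and Nr0b2 (nuclear receptors), and Fgfr4 and Klb (receptor at the cell surface). They were matched by gene symbol, and the set was chosen with earlier results of these data known. All 10 were found, each in 1 row, among the 21873 genes of the RNA-seq table, and all 10 were among the 14094 genes that passed the filter on low values. Liver RNA came from 9 male C57BL/6 mice that were 8 weeks old at the start, with 3 mice in each of 3 groups. The TAA group received thioacetamide (TAA), a hepatotoxin that is activated in hepatocytes, by intraperitoneal injection at 200 mg/kg every 3 days for 8 weeks. The control group received normal saline instead. In both groups liver was taken 72 h after the last dose, at an age of 16 weeks. The recovery group had the same TAA course and was then left untreated for 8 more weeks, so these mice were 24 weeks old. No untreated mice of that age were analysed here, and age and recovery cannot be told apart.

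Bile acids are made from cholesterol in hepatocytes. In the classic pathway CYP7A1 adds the first hydroxyl group and sets the rate, and CYP8B1 directs the product to cholic acid. In the alternative pathway CYP27A1 oxidises the side chain and CYP7B1 then acts on the ring. SLC27A5 and BAAT join the finished acid to coenzyme A and then to taurine or glycine. Bile acids activate the nuclear receptor FXR, encoded by Nr1h4. In hepatocytes FXR induces SHP, encoded by Nr0b2, which represses Cyp7a1 and Cyp8b1. In the ileum FXR induces the hormone FGF15, which acts on the hepatocyte through FGFR4 and its co-receptor beta-Klotho, encoded by Klb, and lowers Cyp7a1.

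The sequence just upstream of the start site is shown for 3 of these genes. Cyp8b1 is a known target of HNF4A and of LRH-1 (encoded by Nr5a2), and Nr0b2 one of LRH-1. Cyp27a1 is a synthesis gene that was picked with its smaller change known. RefSeq promoters (GRCm38.p6) were matched by symbol for 6 of the 10 genes. Each sequence holds the 250 bases before the start site on the gene's own strand, from 5′ to 3′. Capitals mark matches to CAAAGTCCA (an HNF4A motif), to CAAGGNCA (an LRH-1 motif with a free base) and to TCAAGG (a shorter LRH-1 motif that begins with an extra T).
Cyp8b1, chr9:121916306-121916555, minus strand: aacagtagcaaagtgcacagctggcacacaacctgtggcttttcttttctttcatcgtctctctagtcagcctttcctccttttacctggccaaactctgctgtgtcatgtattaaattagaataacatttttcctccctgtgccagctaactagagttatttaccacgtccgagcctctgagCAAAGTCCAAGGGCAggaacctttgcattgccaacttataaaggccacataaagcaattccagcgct
Nr0b2, chr4:133553126-133553375, plus strand: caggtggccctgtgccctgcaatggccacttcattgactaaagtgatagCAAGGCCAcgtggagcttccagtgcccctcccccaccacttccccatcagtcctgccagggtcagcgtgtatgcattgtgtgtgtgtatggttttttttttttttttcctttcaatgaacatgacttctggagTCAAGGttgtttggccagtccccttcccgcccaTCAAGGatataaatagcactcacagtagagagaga
Cyp27a1, chr1:74713285-74713534, plus strand: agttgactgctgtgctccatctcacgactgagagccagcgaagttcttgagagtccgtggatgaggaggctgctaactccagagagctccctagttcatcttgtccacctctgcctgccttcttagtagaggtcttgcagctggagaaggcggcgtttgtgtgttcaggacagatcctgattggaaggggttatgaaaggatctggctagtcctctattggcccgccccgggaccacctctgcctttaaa
In Cyp8b1 the HNF4A motif lay at -67 to -59, counted from the start site, and ran into a CAAGGNCA match at -60 to -53 with which it shares letters. Among 32851 promoters of this length, searched on both strands, 0.384% held CAAAGTCCA and 5.53% held CAAGGNCA. In Nr0b2 CAAGGNCA lay at -201 to -194, and TCAAGG lay at -68 to -63 and at -35 to -30. TCAAGG was in 12.5% of the promoters. The stricter LRH-1 motif CAAGGTCA, without a free base, was in 1.33% of them and in none of the 6 matched genes. In Cyp27a1 none of the 3 marked motifs was found. The same held for Nr1h4, Fgfr4 and Klb, the other matched genes, whose sequences are not shown. Any link between the motifs and the size of a change was not tested. The full inverted repeat of AGGTCA with 1 base between the repeats, to which FXR binds with RXR, was in 2 of the 32851 promoters and in none of the 6 matched genes. In the deposited table the locus of Cyp8b1 runs from 121914356 to 121917350 and so covers the window shown.

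Values are FPKM (fragments per kilobase of gene and M mapped fragments), divided by 1 median-of-ratios factor per library, and are called scaled FPKM. Groups were compared with limma on log2(scaled FPKM + 0.1), with 3 mice against 3. Called genes had an FDR < 0.05 over all tested genes and at least a 2-fold change. All fold changes are given on that log2 scale, which draws those of low genes towards 0. The factors were 1.29 to 1.38 in TAA libraries, against 0.827 to 0.907 in all others. Leaving FPKM as deposited moved the median log2 fold change of all genes from 0.02 to 0.63 for TAA against control, and the called genes from 2389 higher and 1131 lower to 4382 higher and 421 lower. With quantile normalization they were 1534 higher and 1355 lower. Hepatocyte markers were high in all libraries, with summed scaled FPKM of 34980 to 39640 in control mice, 22365 to 29696 in TAA mice and 43466 to 45144 in recovery mice (7 of 8 listed markers measured). Most of each sum was Alb, with means of 28326, 20463 and 35140 in these groups. The markers did not move alike: mean Apoh was 1255 in control and 442 in TAA mice, and mean Ahsg 1374 and 1371. TAA mouse 3 also held skeletal muscle transcripts, with a summed scaled FPKM of 35.6 over 6 markers, against at most 0.0101 in the control and recovery groups. Control mouse 1 had the lowest summed macrophage markers (49.1, against up to 114 in the other control mice), through Clec4f, Csf1r and Cd5l. Adgre1, Cd68 and Itgam were instead highest in it among the control mice. Its summed markers of endothelial cells (34.2), stellate cells and myofibroblasts (52.6) and lymphocytes (5.39) were also the lowest of the control group.

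In TAA-fibrotic mice, 8 of the 10 genes fell and none rose. Cyp8b1 and Cyp7b1 fell most, followed by Baat, Klb, Slc27a5, Nr0b2, Cyp27a1 and Nr1h4. Fgfr4 was lower by less than 2-fold, and Cyp7a1, the rate-limiting gene, did not pass the test. Of all 14094 tested genes, 8.02% were called lower and 17.0% higher. Without the fold criterion, 9 of the 10 genes had an adjusted p under 0.05, all lower, against 26.3% of tested genes, and the same 9 genes did not overlap between the groups, against 31.0%. The median log2 fold change was -1.63 over the 10 genes and 0.02 over all tested genes. After recovery the 8 genes rose again relative to TAA mice, against 7.12% of tested genes called higher and 14.3% lower. Between recovery and control mice 0 of the 10 genes were called, against 0.993% of tested genes, and Klb alone had an unadjusted p under 0.05. The TAA libraries enter the first and the second of these comparisons, so the fall and the rise are not independent.

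**Figure D1:**
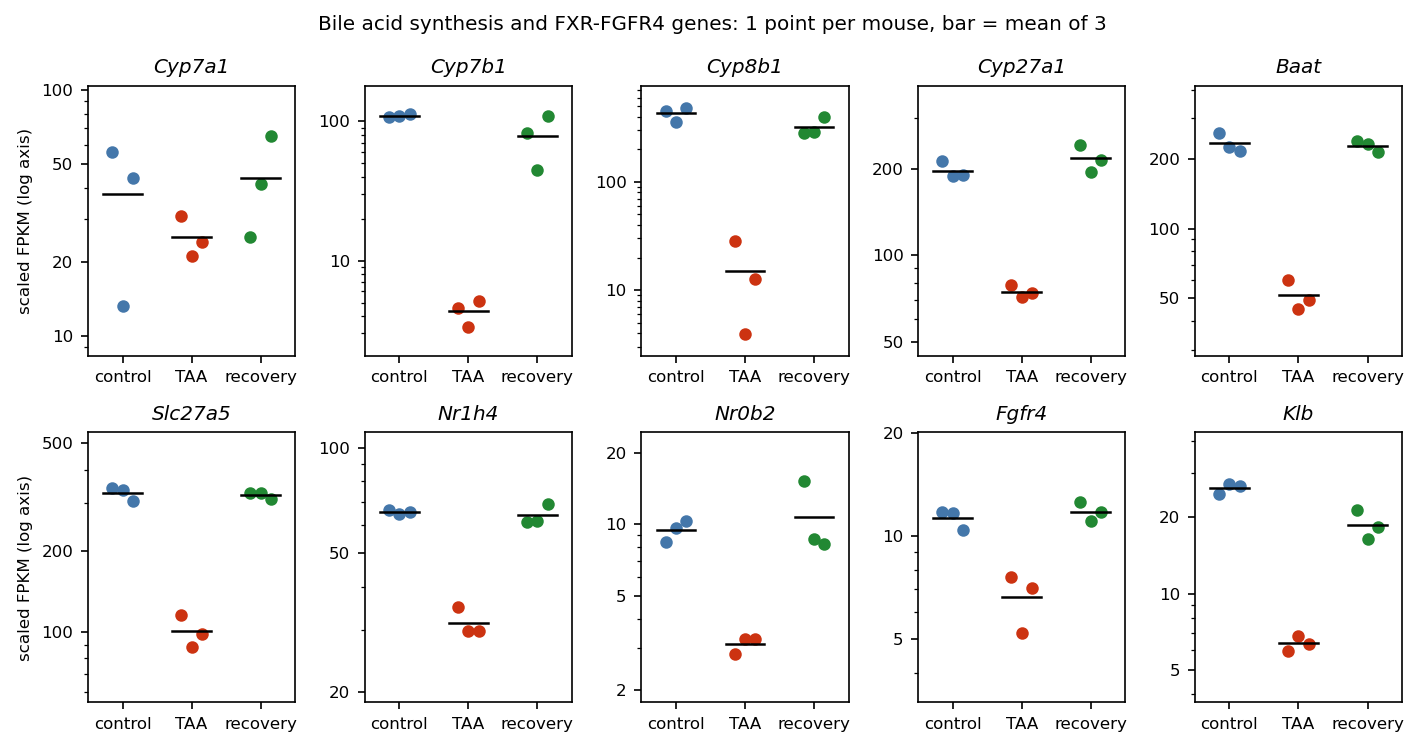
Scaled FPKM (log axis) of the 10 genes in the control, TAA and recovery groups, with 1 point per mouse and a bar at the mean of 3 mice. In 9 genes the TAA mice lie below all control mice, as they do in 31.0% of tested genes. In Cyp7a1 the groups overlap, with control mouse 2 lowest at 13.3.

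In the control group, the genes ranked on the FPKM scale from Cyp8b1 (427 ± 63.9 scaled FPKM; SD, n = 3) over Slc27a5, Baat, Cyp27a1, Cyp7b1, Nr1h4, Cyp7a1, Klb and Fgfr4 to Nr0b2 (9.43 ± 0.948). Within this order, only Cyp7a1 and Klb overlapped as neighbours. In the TAA group Slc27a5 was highest (101 ± 14.2), followed by Cyp27a1, Baat, Nr1h4, Cyp7a1, Cyp8b1, Fgfr4, Klb, Cyp7b1 and Nr0b2 (3.14 ± 0.257). Here Nr1h4 overlapped with Cyp7a1, Cyp7a1 with Cyp8b1, Cyp8b1 with Fgfr4, and Fgfr4 with Klb.

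Cyp7a1 (ENSMUSG00000028240, chr4:6265612-6275633, mm10, minus strand) encodes the rate-limiting enzyme of the classic pathway. Its scaled FPKM were 55.9, 13.3 and 44.0 in control mice 1, 2 and 3, then 30.8, 21.1 and 24.1 in TAA mice, and 25.3, 41.4 and 65.0 in recovery mice. The control mice spanned a 4.21-fold range that held all TAA values, and the coefficient of variation in the control group was 58.3%. Of the genes with a mean scaled FPKM of at least 1, 98.1% varied less between control mice, and their median was 10.3%. Relative to control mice, the TAA mice had a log2 fold change of -0.35 (95% interval -1.49 to 0.79, adjusted p = 0.570), and recovery against TAA mice gave 0.70 (-0.02 to 1.43, adjusted p = 0.0969). Both intervals reach past 2-fold, so a change of that size could not be told from none at this spread. For recovery against control it was 0.35 (-1.06 to 1.76, adjusted p = 0.762). Single mice set these values. Without control mouse 2, the TAA value was -0.98 (adjusted p = 0.00610, just short of 2-fold), and without control mouse 1 it was 0.05. Without recovery mouse 1, the rise against the TAA group was called, at 1.05 (adjusted p = 0.00990). The direction in the TAA group also turned with FPKM as deposited (0.28), hepatocyte gene scaling (0.33; libraries scaled by the 7 hepatocyte markers) and quantile normalization (0.03).

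Cyp8b1 (ENSMUSG00000050445, chr9:121914356-121917350, minus strand), whose enzyme sets the share of cholic acid, was the highest of the 10 genes in control mice, with 447, 356 and 479 scaled FPKM. In TAA mice it was at 28.2, 3.96 and 12.6, and in recovery mice at 279.9, 289 and 400.1. All TAA mice were far below all other mice, but they differed from each other more than in any other of the 10 genes, with a coefficient of variation of 82.4% and TAA mouse 2 lowest. Of the genes with a mean of at least 1, 99.6% varied less between TAA mice. The fall amounted to -5.23 on the log2 scale (SE 0.61, adjusted p = 0.000305), a 37.4-fold fall, and 0.177% of tested genes had a lower value. It was -4.49 without TAA mouse 2. In recovery Cyp8b1 rose by 4.81 (SE 0.60, adjusted p = 0.000431). Against the control group it was -0.41 (95% interval -0.84 to 0.01, adjusted p = 0.228), with overlapping groups.

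Cyp27a1 (ENSMUSG00000026170, chr1:74713574-74737892, plus strand), the mitochondrial sterol 27-hydroxylase that opens the alternative pathway, was at 212, 189 and 189 scaled FPKM in control mice. The TAA mice lay close together at 78.5, 71.3 and 73.7, and the recovery mice at 242, 195 and 214, within or above the control range. The log2 fold change of TAA mice was -1.40 (SE 0.09, adjusted p = 2.07e-05) and became 1.54 in recovery against TAA (SE 0.10, adjusted p = 2.81e-05). For recovery against control it was 0.14 (95% interval -0.11 to 0.38).

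Cyp7b1 (ENSMUSG00000039519, chr3:18071950-18243338, minus strand), the oxysterol 7-alpha-hydroxylase of the alternative pathway, was at 108, 109 and 112 scaled FPKM in control mice, a coefficient of variation of 1.78%. It was at 4.55, 3.31 and 5.16 in TAA mice, a 25.1-fold fall (log2 fold change -4.65, SE 0.15, adjusted p = 2.19e-06), and 0.255% of tested genes had a lower value. Recovery mice had 81.7, 44.3 and 109.5, all above the TAA mice, and the coefficient of variation was 41.6%. The rise against the TAA group was 4.07 (SE 0.32, adjusted p = 4.90e-05). Recovery mouse 3 lay inside the control range, and recovery mice 1 and 2 lay below it. The difference from the control group was -0.58 (95% interval -1.31 to 0.16, adjusted p = 0.313) and ranged from -0.86 to -0.21 with 1 mouse left out.

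Slc27a5 and Baat, the 2 conjugation genes, both fell and returned to within or just below the control range. Slc27a5 (ENSMUSG00000030382, chr7:12988346-12998192, minus strand), the bile acid coenzyme A ligase, was at 343, 336 and 307 scaled FPKM in control mice, 116, 88.0 and 98.5 in TAA mice, and 329, 329 and 310.2 in recovery mice. It fell by 1.71 on the log2 scale in TAA mice (adjusted p = 3.20e-05) and rose by 1.69 in recovery (adjusted p = 2.95e-05). Baat (ENSMUSG00000039653, chr4:49486203-49506557, minus strand), which attaches taurine or glycine, was at 259, 225 and 217 in control mice, 60.1, 45.1 and 49.2 in TAA mice, and 239, 234 and 214 in recovery mice. It fell by 2.19 on the log2 scale in the TAA group (adjusted p = 1.55e-05) and rose by 2.16 in recovery (adjusted p = 1.33e-05). In both genes TAA mouse 1 was the highest TAA mouse, and no TAA mouse overlapped with another group. Against the control group the log2 differences in recovery were -0.02 for Slc27a5 (95% interval -0.21 to 0.16) and -0.03 for Baat (-0.25 to 0.20), which leave no room for a 2-fold difference.

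Nr1h4 (ENSMUSG00000047638, chr10:89454234-89533585, minus strand), which encodes the bile acid sensor FXR, varied least of the 10 genes in control mice, with 66.3, 64.7 and 65.2 scaled FPKM. It was at 35.0, 29.9 and 29.9 in TAA mice and 61.3, 61.7 and 69.0 in recovery mice. The fall of 1.05 on the log2 scale (SE 0.09, adjusted p = 7.32e-05) was just over 2-fold, as was the rise of 1.02 in recovery (SE 0.10, adjusted p = 0.000134). The rise dropped under 2-fold without TAA mouse 2 (0.98), TAA mouse 3 (0.98) or recovery mouse 3 (0.96). With hepatocyte gene scaling the fall was 0.37 on the log2 scale (adjusted p = 0.0151), and the rise in recovery was 0.26 and did not pass an FDR of 0.05 (adjusted p = 0.0776).

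Nr0b2 (ENSMUSG00000037583, chr4:133553376-133556536, plus strand), which encodes the repressor SHP, was the lowest of the 10 genes in control mice, with 8.41, 9.59 and 10.3 scaled FPKM. It was at 2.84, 3.29 and 3.27 in TAA mice. The repressor and its target Cyp8b1 were thus both lower in all TAA mice (log2 fold change of Nr0b2 -1.56, SE 0.12, adjusted p = 4.78e-05). In recovery mice it was at 15.2, 8.62 and 8.21, with mouse 1 above all control mice and the other 2 within or just below their range. The rise against the TAA group was 1.68 (SE 0.23, adjusted p = 0.000646) and was 1.40 without recovery mouse 1. Against the control group it was 0.12 (95% interval -0.45 to 0.70) and turned to -0.16 without recovery mouse 1.

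Fgfr4 and Klb encode the 2 parts of the hepatocyte receptor for FGF15, and they did not change to the same extent. Fgfr4 (ENSMUSG00000005320, chr13:55152640-55168759, plus strand) was at 11.8, 11.7 and 10.5 scaled FPKM in control mice, 7.63, 5.24 and 7.06 in TAA mice, and 12.6, 11.1 and 11.8 in recovery mice. The groups did not overlap in the TAA comparison, and the log2 fold change of -0.77 (SE 0.15, adjusted p = 0.00366) was short of 2-fold. In recovery against TAA it was 0.84 (adjusted p = 0.00239). Under FPKM as deposited and hepatocyte gene scaling, the TAA values of Fgfr4 were near 0, with -0.10 in the latter (adjusted p = 0.616). Klb (ENSMUSG00000029195, chr5:65348314-65384007, plus strand) was at 24.7, 27.0 and 26.7 in control mice and at 5.95, 6.80 and 6.33 in TAA mice, a 4.06-fold fall (log2 fold change -2.02, SE 0.09, adjusted p = 6.31e-06). Recovery mice had 21.3, 16.4 and 18.3, between the TAA and the control mice with no overlap on either side. Klb rose by 1.53 (SE 0.12, adjusted p = 5.01e-05) against the TAA group. It was 1.40-fold lower than in the control group (log2 -0.49, 95% interval -0.75 to -0.23, unadjusted p = 0.00315, adjusted p = 0.0676). Between control and recovery mice, 15.6% of all tested genes did not overlap and were lower. Its adjusted p was under 0.05 with all 9 libraries in one fit (0.0314) and with hepatocyte gene scaling (0.0491). It was over 0.05 under every other alternative tried, among them FPKM as deposited (0.106), no filter on low values (0.111), the replicate number as a block (0.135) and each mouse left out in turn (0.0522 to 0.181).

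**Figure D2:**
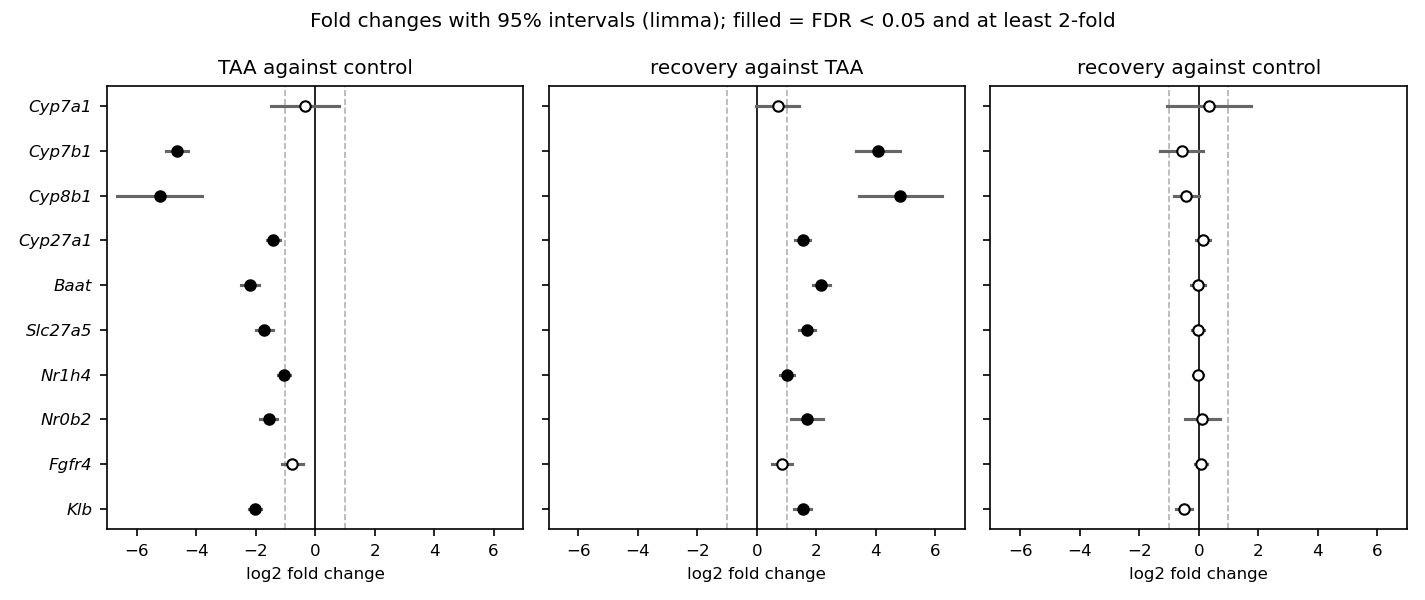
Log2 fold changes of the 10 genes in the 3 comparisons, with 95% intervals from limma (3 mice against 3), dashed lines at a 2-fold change and filled points for called genes. The TAA panel runs from Cyp8b1 at -5.23 to Cyp7a1 at -0.35, and in recovery against control no gene is filled.

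How much of the TAA difference was left in the recovery group was computed on the log2 scale as the recovery minus control difference over the TAA minus control difference. It was 24.2% for Klb (14.4%, 33.1% and 25.0% in recovery mice 1, 2 and 3), 12.4% for Cyp7b1 (9.09%, 28% and 0.00855%) and 7.88% for Cyp8b1 (11.5%, 10.6% and 1.61%). For Nr1h4, Slc27a5 and Baat it was 3.14%, 1.42% and 1.26%. It was below 0 for Cyp27a1, Nr0b2 and Fgfr4, which were slightly above the control mean. For Nr0b2 recovery mouse 1 alone set the sign, with -44.2%, 7.87% and 12.3% in recovery mice 1, 2 and 3. For Cyp7a1 the TAA difference was too small for such a share. All shares are for median-of-ratios scaling and differ under other scalings. For Nr1h4 the recovery and TAA differences from control were -0.12 and -0.37 with hepatocyte gene scaling. With FPKM as deposited they were 0.04 and -0.41. Those of Klb were -0.57 and -1.35 with hepatocyte gene scaling, and -0.41 and -1.39 with FPKM as deposited.

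Ratios of a pair of genes in the same library do not depend on the scaling between libraries. Each was compared with an exact two-sided permutation test, for which 0.1 is the smallest p that 3 against 3 mice allow, and 12 tests were made in all. The ratio of Cyp8b1 to Cyp7a1 was 8.00, 26.8 and 10.9 in control mice, 0.914, 0.187 and 0.521 in TAA mice, and 11.1, 6.98 and 6.15 in recovery mice. Thus Cyp8b1 transcripts outnumbered Cyp7a1 transcripts per length in all control and recovery mice, and the reverse was seen in all TAA mice, a 29.7-fold shift (p = 0.1, adjusted p = 0.133, exact permutation test). The ratio of Cyp7a1 to Cyp7b1, the 7-alpha-hydroxylases of the classic and alternative pathways, turned over in the other direction. It was 0.518, 0.122 and 0.394 in control mice, 6.78, 6.38 and 4.67 in TAA mice, and 0.309, 0.934 and 0.594 in recovery mice (20.1-fold between the TAA and control groups, p = 0.1, adjusted p = 0.133, exact permutation test). Klb to Fgfr4 was 2.10, 2.31 and 2.55 in control mice, 0.779, 1.30 and 0.897 in TAA mice, and 1.69, 1.47 and 1.56 in recovery mice. No group overlapped with another, so this ratio was still 1.47-fold lower in recovery than in control mice (p = 0.1, adjusted p = 0.133, exact permutation test). Nr0b2 to Nr1h4 was 0.127, 0.148 and 0.158 in control mice, 0.0811, 0.110 and 0.109 in TAA mice, and 0.248, 0.14 and 0.119 in recovery mice, a 1.45-fold lower ratio in the TAA group (p = 0.1, adjusted p = 0.133, exact permutation test).

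**Figure D3:**
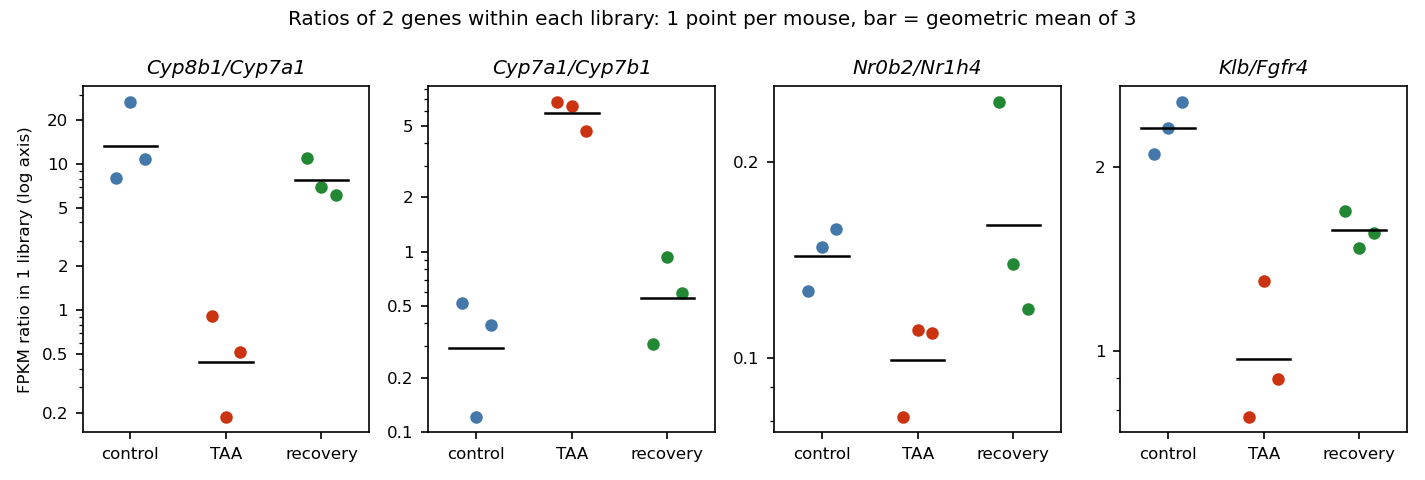
FPKM ratios of 2 genes within each library (log axis), with 1 point per mouse and a bar at the geometric mean of 3 mice. Cyp8b1/Cyp7a1 lies below 1 in the 3 TAA mice only, Cyp7a1/Cyp7b1 lies above 1 in them only, and Klb/Fgfr4 of the recovery mice lies between the other groups.

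The size of the falls depended on the scaling of the libraries. Cyp8b1, Cyp7b1, Baat and Klb were called lower in the TAA group under median-of-ratios, upper-quartile, quantile and hepatocyte gene scaling and with FPKM as deposited. Cyp27a1, Nr1h4, Nr0b2 and Slc27a5 were called under fewer of them, with values as small as -0.66, -0.37, -0.89 and -0.80. Under all 5 scalings these genes stayed below 0 with an FDR under 0.05. The number of called genes among the 10 was 8 with median-of-ratios scaling, 7 with upper-quartile scaling, and 5 with each of the other 3. For the rise in recovery it was 8, 7, 5 with quantile normalization or FPKM as deposited, and 3 with hepatocyte gene scaling (Cyp8b1, Cyp7b1 and Baat).

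**Figure D4:**
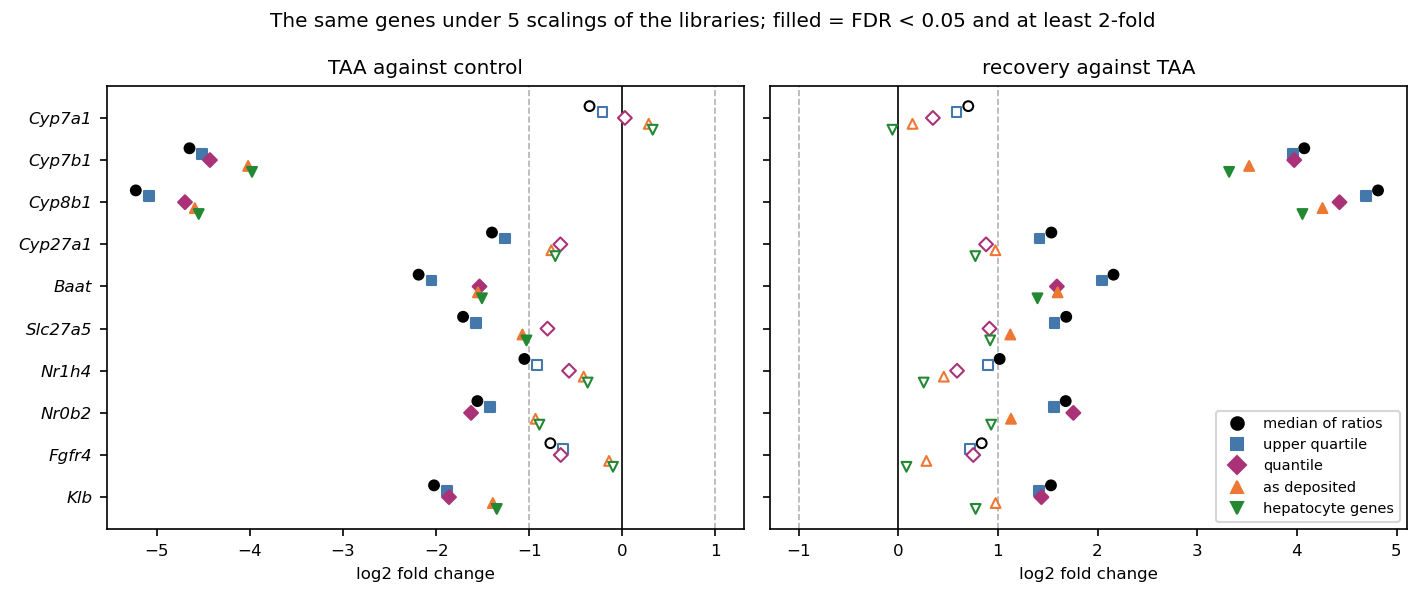
Log2 fold changes of the 10 genes for TAA against control mice (left) and recovery against TAA mice (right), under 5 scalings of the libraries, with dashed lines at a 2-fold change and filled symbols for called genes. Cyp8b1 and Cyp7b1 stay at -3.98 or lower in the left panel, while Cyp7a1 lies on either side of 0.

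Other enzymes of bile acid synthesis mostly moved with the 10 genes. Of 14 listed and tested, 7 fell and 2 rose in TAA mice (median -1.07 on the log2 scale), and 7 rose and 0 fell in recovery against TAA. The matching shares of all tested genes were 8.02% and 17.0% in TAA mice, and 7.12% and 14.3% in recovery against TAA. Slc27a2, the very long-chain acyl-CoA synthetase, fell most, from 761, 744 and 762 scaled FPKM in control mice to 135, 115 and 128 in TAA mice (-2.59, adjusted p = 3.25e-06). It rose to 618, 662 and 623 in recovery mice. Hsd3b7, which acts after CYP7A1 and CYP7B1, fell by 1.31 on the log2 scale (adjusted p = 2.37e-05) and rose by 1.31 in recovery (adjusted p = 1.86e-05). Cyp2c70, which makes the muricholic acids of the mouse, went the other way, from 51.5, 94.7 and 63.6 in control mice to 154, 162 and 122 in TAA mice (1.09, adjusted p = 0.00445). It was at 91.6, 50.1 and 102 in recovery mice (-0.90 against TAA, adjusted p = 0.0206, short of 2-fold). The other gene called higher, Ch25h, was at 0.209, 0.197 and 0.205 in TAA mice and at most 0.1 in control mice. In recovery against control none was called. Cyp39a1 had the only adjusted p under 0.05 there (0.85, adjusted p = 0.0403, short of 2-fold).

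Among 13 tested regulators of Cyp7a1 and Cyp8b1 (Vdr did not pass the filter), 6 fell and 1 rose in the TAA group, and 2 rose in recovery against TAA. The matching shares of all tested genes were 8.02%, 17.0% and 7.12%. Nr1i3, the nuclear receptor CAR, fell most, from 76.5, 76.1 and 73.5 scaled FPKM in control mice to 11.1, 10.4 and 12.8 in TAA mice (-2.72, adjusted p = 2.75e-06). It rose to 54.5, 40.8 and 46.0 in recovery mice (2.03 against TAA), below all control mice (-0.69, adjusted p = 0.0349, short of 2-fold). Hnf4a, the hepatocyte factor whose motif stands in the Cyp8b1 promoter shown, fell from 223, 232 and 189 to 105, 101 and 90.2 (-1.11, adjusted p = 0.000150) and was at 258, 185 and 186 in recovery mice. Rxra, the partner of FXR, fell by 1.25 on the log2 scale (adjusted p = 2.61e-05) and was 0.80 higher in recovery than in TAA mice (adjusted p = 0.000367, short of 2-fold). Nr5a2 (LRH-1) and Nr1h3 (LXR alpha, which induces mouse Cyp7a1) were lower by less than 2-fold, with -0.73 (adjusted p = 0.00105) and -0.61 (adjusted p = 0.000819). The gene that rose, Gpbar1, the membrane receptor for bile acids, was low throughout, at 0.243, 0.1 and 0.416 in TAA mice and at most 0.0841 in control mice. Mafg was the other regulator with an adjusted p under 0.05 in recovery against control (-0.74, adjusted p = 0.0337, short of 2-fold).

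FXR targets of the hepatocyte did not move as 1 group. Of 7 tested (Slc51a did not pass the filter), 2 fell and 1 rose in the TAA group, against 8.02% and 17.0% of tested genes. Without the fold criterion, 4 were lower and 1 higher at an adjusted p under 0.05, and 26.3% of tested genes were lower. The median log2 fold change was -0.97. Abcb4 was at 219, 215 and 212 scaled FPKM in control mice, 91.3, 102 and 86.8 in TAA mice, and 178, 178 and 200 in recovery mice. Abcb11, the bile salt export pump and a direct target of FXR, was at 65.6, 47.3 and 48.8 scaled FPKM in control mice, 66.3, 81.9 and 57.3 in TAA mice, and 71.9, 57.6 and 72.9 in recovery mice. Its TAA value was 0.35 (adjusted p = 0.124), and the groups overlapped. Fetub, a plasma protein, fell most, by 2.10 on the log2 scale (adjusted p = 4.78e-05), and rose by 1.81 in recovery (adjusted p = 2.08e-05). Slc51b, a subunit of the basolateral exporter, rose from 0, 0 and 0.148 to 0.463, 0.929 and 0.395 (2.29, adjusted p = 0.00363), and the fitted value depends on the 0.1 added to each FPKM. Apoc2 was at 71.6 in control mouse 1 and at most 4.72 in every other mouse.

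All 4 uptake transporters fell in the TAA group and rose in recovery, against 8.02% and 7.12% of all tested genes. Slc10a1, the sodium-dependent bile acid transporter NTCP, went from 217, 242 and 247 scaled FPKM in control mice to 49.3, 34.6 and 39.9 in TAA mice and 219, 227 and 218 in recovery mice. It fell by 2.52 on the log2 scale (adjusted p = 1.21e-05) and rose by 2.44 in recovery (adjusted p = 1.18e-05). Slco1a1, an organic anion transporter, fell most, from 138, 115 and 128 to 0.996, 0.671 and 0.720 (-7.17, adjusted p = 5.40e-07). It was at 85.4, 75.3 and 79.4 in recovery mice, below all control mice (-0.67, adjusted p = 0.0239, short of 2-fold).

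Fgf15, the ligand of FGFR4 from the ileum, was listed at 0 in all 9 libraries, and Kl was at most 0.0185 scaled FPKM. Of the other 6 FGF ligands and receptors tested, 2 fell and 2 rose in the TAA group, and all 4 turned back in recovery. Among all tested genes, 8.02% were called lower and 17.0% higher in the TAA group. Fgf1 fell most, from 46.1, 42.5 and 50.4 to 8.42, 6.54 and 6.5 (-2.69, adjusted p = 7.31e-06), and was at 58.3, 51.7 and 44.9 in recovery mice. Fgf21, a hepatic hormone that signals through beta-Klotho, was at 4.78, 4.65 and 2.67 in control mice, 1.0, 0.983 and 0.881 in TAA mice, and 6.34, 12.2 and 17.6 in recovery mice. It had the largest rise of this list in recovery against TAA (3.41, adjusted p = 0.000125), and all recovery mice were above all control mice (1.49, adjusted p = 0.0996). The genes called higher were Fgf2 and Fgfr3. Fgfr3 rose from 3.07, 2.34 and 2.92 to 9.80, 7.42 and 10.8 (1.71, adjusted p = 0.000155), and Fgf2 rose from at most 0.157 to 1.07, 0.570 and 0.985 (2.26, adjusted p = 0.00120).

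**Figure D5:**
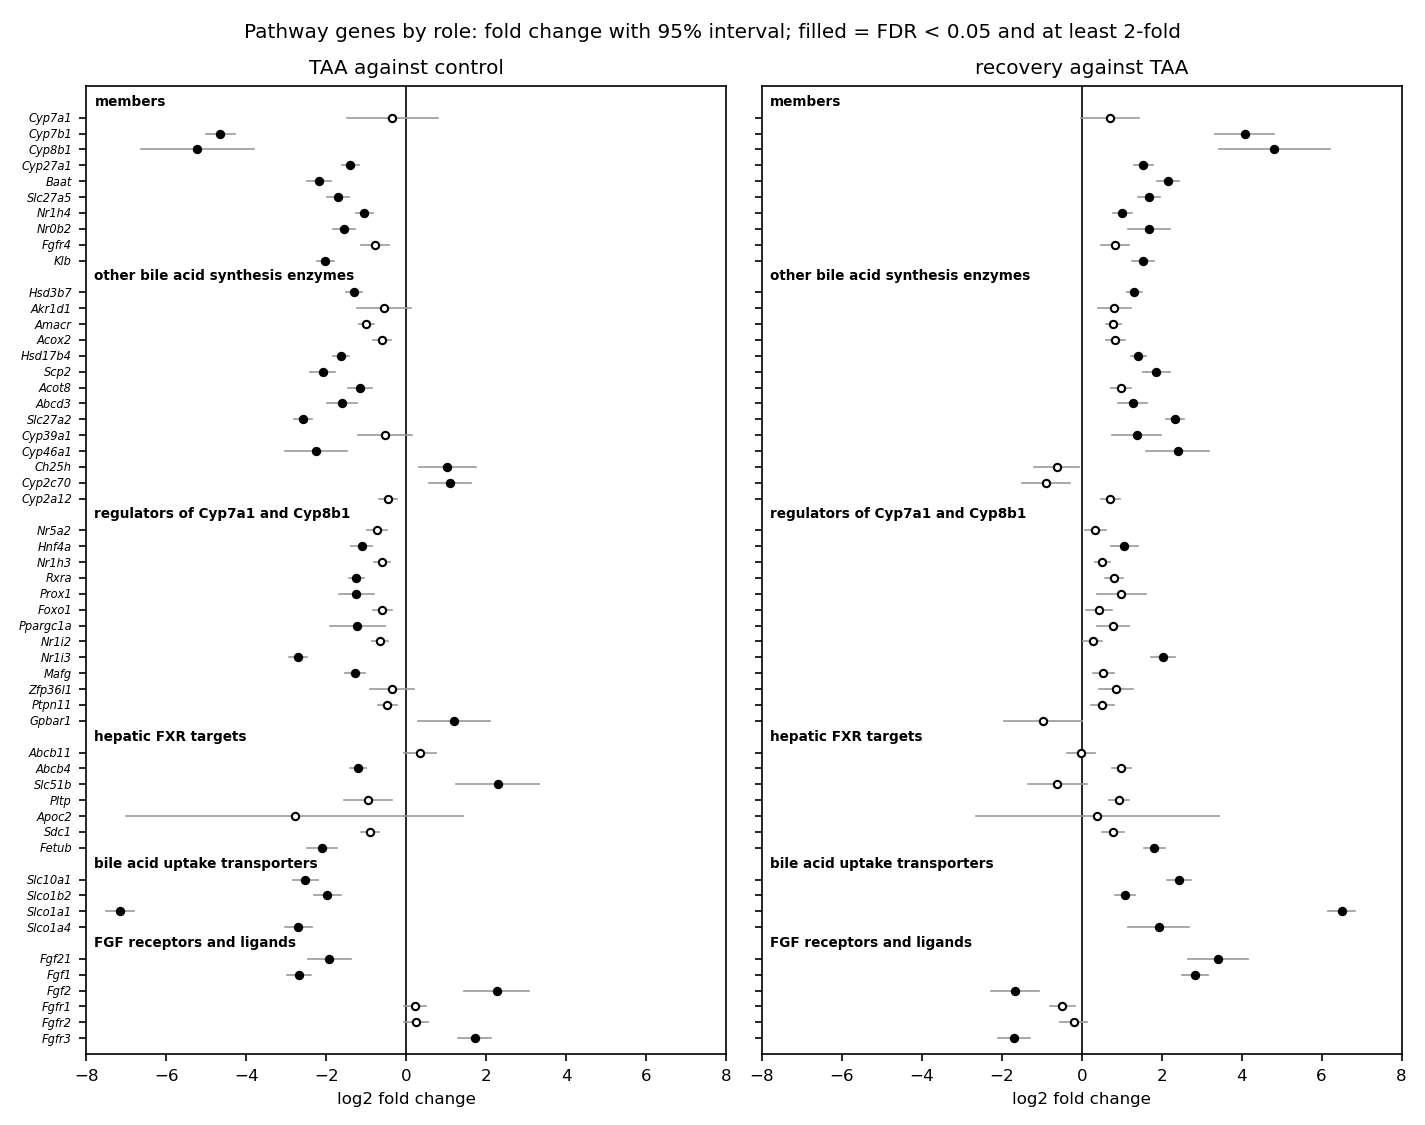
Log2 fold changes with 95% intervals of the 10 genes and of 5 lists of related genes, for TAA against control mice (left) and recovery against TAA mice (right), with filled points for called genes. The uptake transporters and most enzymes lie left of 0 in the TAA group and right of 0 in recovery, whereas Cyp2c70, Fgf2 and Fgfr3 lie on the opposite sides.

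Genes of other cell types moved with the groups in the same libraries. In bulk liver, fewer cells of a type and less RNA per cell cannot be told apart. All 6 cholangiocyte markers rose in the TAA group (summed scaled FPKM 15.8 to 21.4 in control mice, 299 to 448 in TAA mice and 28.9 to 39.3 in recovery mice), as did 5 of 6 markers of stellate cells and myofibroblasts (52.6 to 96.0, 162 to 230 and 81.8 to 113). Of the macrophage markers 2 of 6 rose, and of the endothelial and lymphocyte markers 0 of 6 each were called, with Ptprc alone at an adjusted p under 0.05 (0.90, adjusted p = 0.00156). None of these markers was at 0 in all mice of a group. The 4 proliferation markers rose as well. Over all tested genes, 17.0% were called higher and 8.02% lower in the TAA group. Of the 7 hepatocyte markers 2 fell, with a median log2 fold change of -0.50, against -1.63 for the 10 genes. The part of cell makeup in the falls was not tested. Without TAA mouse 3, which held the muscle transcripts, or without control mouse 1, 8 of the 10 genes were still called lower, with Cyp8b1 at -5.31 and -5.19 and Cyp7b1 at -4.78 and -4.66.

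The clock genes differed between the recovery and the control groups, with 2 of 10 called higher and 4 lower, against 0.582% and 0.412% of tested genes. In TAA against control 2 were called higher and 1 lower, against 17.0% and 8.02%. At an adjusted p under 0.05 and any fold, 7 were lower there, against 26.3%, and 2 were higher. In recovery against TAA 2 were called higher and 3 lower, against 7.12% and 14.3%. Dbp, a factor of the clock's output that acts on the Cyp7a1 promoter, was at 55.6, 47.1 and 55.4 scaled FPKM in control mice, 35.2, 26.3 and 32.4 in TAA mice, and 10.3, 5.92 and 2.85 in recovery mice. It was 3.21 lower on the log2 scale in recovery than in control mice (adjusted p = 0.0216), with no overlap between any of the groups. Cyp7a1 and Cyp8b1 follow the time of day in mouse liver. The hour at which livers were taken is not known here, and its part in their values was not tested.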

How the data were processed

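Liver mRNA of 9 mice was sequenced, 3 per group, and samples were grouped by the treatment in their labels. The authors mapped reads to the mouse genome (mm10, GRCm38) with HISAT2 2.2.1, counted them with featureCounts 1.5.0-p3 and deposited FPKM, with 1 column per mouse. The read counts and the small RNA data were not used here. Steps between the lowest FPKM put the depth at 26.9 to 40.5 M fragments per library. Only 46.3% to 61.5% of the low values came out whole (within 0.08, where chance gives 16%), so no count test was made, and the spread of 3 mice is the error of each value.

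Libraries were scaled by median-of-ratios factors over the genes above 0 in all of them. Where mean FPKM reached 0.1, log2(scaled FPKM + 0.1) was compared with limma 3.58.1 (eBayes with a trend, R 4.3.3) in the 6 libraries of each comparison, with Benjamini-Hochberg adjustment over all 14094 tested genes. The steps were tested on simulated data. Other pseudocounts, filters, scalings, fits and sets of mice were tried. Other tools were Python 3.11.15, pandas 2.3.3 and numpy 2.4.6.

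The 10 genes and all lists were chosen with earlier results of these data known. Of each list but the clock genes, the text names the genes with the largest called rise and fall in the TAA group. It also names those that go against their list, and Nr5a2, Hnf4a, Nr1h3, Rxra, Fgf15, Abcb11, Hsd3b7, Cyp2c70 and Dbp. Dbp is the only clock gene given by name. Abcb4, Cyp39a1, Mafg, Slc10a1, Fgf21, Fgfr3, Ptprc, Apoc2, Kl and the Slco1a1 and Nr1i3 values against the control group were added after their values were seen. So were the single markers of macrophages and hepatocytes. Of the 8 listed hepatocyte markers, Tf is not a symbol of the table. Loci are those of the table. Of the genes most like Cyp7a1 in pattern, 1 is not reported here.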

Additional observations from a re-analysis of the deposited data

How the results depend on the processing

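Over 10 genes and the alternatives tried, 165 of 180 values kept their direction and call for TAA against control, 160 of 180 for recovery against TAA and 167 of 180 for recovery against control. The number of called genes was 5 with FPKM as deposited, 5 with quantile normalization and 5 with hepatocyte gene scaling (8 as reported) in the TAA group. In recovery against TAA it was 5, 5 and 3 in the same order. With 1 mouse left out it was 8 for TAA against control, 7 to 9 for recovery against TAA and 0 for recovery against control. Cyp7a1 turned in the TAA group to 0.28 (FPKM as deposited), 0.029 (quantile), 0.33 (hepatocyte genes) and 0.051 (without control mouse 1; range -0.98 to 0.051 with 1 mouse left out), and in recovery against TAA to -0.058 (hepatocyte genes). Against the control group, values near 0 changed sign in recovery: Cyp7a1 to -0.28 without control mouse 2 (range -0.28 to 0.75), Nr0b2 to -0.16 (range -0.16 to 0.28) and the log2 Nr0b2/Nr1h4 ratio to -0.16 (range -0.16 to 0.37) without recovery mouse 1, Fgfr4 to -0.016 with hepatocyte genes, Baat to 0.049 (as deposited), 0.059 (quantile), 0.049 (without control mouse 1) and 0.02 (without recovery mouse 3; range -0.078 to 0.049), Slc27a5 to 0.052, 0.11, 0.0081 and 0.0041 in that order (range -0.073 to 0.0081), and Nr1h4 to 0.043 (as deposited) and 0.019 (quantile). With the replicate number as a block, 8, 8 and 0 genes were called, so the block changed no call; the numbers are not known to pair mice, since correlations of same-numbered deviations were -0.07 to 0.12. Over all genes, recovery against control gave 140 calls and 17 with the block, 48 without a filter, 80 with a pseudocount of 1, 85 without a trend, 235 with all 9 libraries in one fit, 0 with treat (88 at an unadjusted p under 0.05) and 32 to 106 with 1 mouse left out. For TAA against control and recovery against TAA, 3520 and 3017 calls became 1780 and 1460 with a pseudocount of 1, 2204 and 1895 with a mean FPKM of at least 1, and 1441 and 1084 with treat, and the latter became 5154 with hepatocyte gene scaling. The causes were not tested.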

Other observations

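Genes that differ between the sexes moved in the same male livers. Of 8 male-biased liver genes 7 fell in the TAA group (median log2 fold change -3.74) and 8 rose in recovery, where Elovl3, a fatty acid elongase, went from 55.3, 81.7 and 68.9 scaled FPKM in control mice to 0.0924, 0.0986 and 0.104 in TAA mice and 145, 138 and 219 in recovery mice. Of 6 tested female-biased genes 5 rose in the TAA group and 5 fell in recovery. The other, Cux2, was lower in TAA mice (0.196, 0.155 and 0.166, against 0.289, 0.258 and 0.702 in control mice) but not called. Of all tested genes, 8.02% were called lower and 17.0% higher in the TAA group. In recovery against TAA 7.12% were called higher and 14.3% lower. Cyp3a41a, a female-biased P450, was at most 0.0158 in control mice, 14.9, 13.8 and 12.1 in TAA mice and at most 0.0423 in recovery mice. Cyp7b1 and Slco1a1 are themselves known to be higher in male than in female mouse liver, and Slco1a1 stands in the male-biased list.

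Slc10a2, the sodium-dependent bile acid transporter of the ileum and of cholangiocytes, was at 2.51, 1.43 and 1.99 scaled FPKM in control mice, 12.7, 11.7 and 8.85 in TAA mice, and 2.17, 2.64 and 2.66 in recovery mice (2.45 in the TAA group, adjusted p = 9.35e-05, and -2.10 in recovery against TAA, adjusted p = 4.68e-05). Fabp6, the bile acid binding protein of the ileum, was at most 0.0395 in any library.

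Likeness of pattern was measured as the root mean square difference between centred log2 profiles over the 9 libraries, among 10961 genes with a mean scaled FPKM of at least 1. Among the 3 genes nearest to Cyp7a1 were Efna1 (0.32) and Cib3 (0.40), and none of the other 9 members came close, with Nr1h4 in place 1543. Nearest to Cyp7b1 were Mup18 (0.31), Ugt3a1 (0.32) and Serpina12 (0.32). Nearest to Cyp8b1 were Serpina1e (0.32), Sult2a8 (0.54) and Mup13 (0.64), and Cyp7b1 was in place 8. Nearest to Nr0b2 were H2-Ke6 (0.15), Cyp2u1 (0.16) and Lgals4 (0.19), and Cyp27a1 was in place 13. Mup18, Mup13 and Serpina1e belong to families of near-identical copies, between which reads can be split, so their values are uncertain.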
